A study of Gallus gallus with 2 samples.

Results

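Small leucine-rich proteoglycans (SLRPs) are secreted proteins with a core of leucine-rich repeats, most of which carry glycosaminoglycan chains. They bind collagen fibrils, set how fibrils are spaced and how thick they grow, and are known as matrix products of tendon, skin, cornea, and cartilage. Class I holds *DCN* and *BGN*, with chondroitin or dermatan sulfate chains. Class II holds the keratan sulfate type relatives *LUM*, *FMOD*, *KERA*, *OMD*, and *PRELP*, and class III holds *OGN*, *EPYC*, and *OPTC*. Here the symbols *DCN*, *LUM*, *FMOD*, *OGN*, *KERA*, *ASPN*, *PRELP*, and *OMD* were looked up among the 29558 genes of both libraries. Of these 8 symbols, 7 had a row, and *ASPN* was not analysed here.

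The data are single-cell counts of peritoneal tissue from Huiyang Bearded Chickens aged 40 days, with hyperpigmentation of the visceral peritoneum (HVP) in one group and normal peritoneum in the other. Cells of 10 birds were pooled into 1 library per group, so the birds cannot be told apart, there are no replicates, and no test between the groups was possible. Intervals below are 95% intervals that cover counting error only. After dropping barcodes with 1000 genes or fewer, 5866 of 7157 barcodes in the HVP-labelled library and 5464 of 6981 barcodes in the Normal-labelled library remained, with a median of 5345 and 3818 UMIs per cell, and 11 of the remaining barcodes occurred in both libraries. The sample titles and the names of the deposited matrices assign the libraries to opposite groups. The titles were followed, and every direction between the libraries given below would turn round under the other assignment. *DCT*, the pigment enzyme gene that the study links to HVP, had 64 UMIs (1.86 CPM) in the HVP-labelled library and 119 UMIs (4.77 CPM) in the Normal-labelled library. The study reports *DCT* as higher in its HVP group, which is the opposite of this direction by title. These are totals over all cells, of which 94 and 61 were melanocyte-like by markers in the libraries labelled HVP and Normal.

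Cells were clustered without SLRP genes, and classes were named from markers that hold none of them. CPM below is the UMI count of a gene over the total UMIs of all cells of a class, scaled to 1e6, and the 3′ chemistry counts a transcript once whatever its length. Almost all transcripts of the 7 genes lay in 4 stromal populations, called here by a leading gene that marks each in both libraries. *COL10A1* cells had 8 of 9 tenocyte markers in the HVP-labelled library and 7 of 9 in the Normal-labelled library. The naming rule left these cells unnamed in the HVP-labelled library, because markers of another type led. In the HVP-labelled library *COL9A1*, a cartilage collagen, was also among their leading genes, at 11.8 CPM (77 UMIs). Other cartilage markers were mixed there. *COMP* (665 CPM) and *HAPLN1* (2.77 CPM, only 18 UMIs) were above their levels over all kept cells (356 and 1.63 CPM). *SOX9* was below its own (5.07 against 7.47 CPM), and *MATN1* had no UMI. In the Normal-labelled library these cells had 10 *COL9A1* UMIs (3.85 CPM). *COMP* was again above its level over all kept cells (701 against 223 CPM). *HAPLN1*, with 1 UMI, was below its own (0.385 against 0.682 CPM), as was *SOX9* (4.23 against 10.4 CPM). Levels of *COL2A1* and *MATN3* are not given here. *NELL1* cells, with *ACAN*, *CTHRC1*, and *WNT7B* among their leading genes, had 4 of 9 and 5 of 9 tenocyte markers in the libraries labelled HVP and Normal. *WNT2* cells had 5 of 10 and 7 of 10 fibroblast markers. *LCAT* cells, with *LCAT*, *RET*, and *GSN* among their leading genes, had 1 of 10 fibroblast markers in the HVP-labelled library, too few for a name. They had 6 of 10 in the Normal-labelled library. The first leading gene of *LCAT* cells in the HVP-labelled library was *IGLL1*. In the Normal-labelled library *IGLL1* was among the leading genes of an unnamed cluster with T cell markers instead. A marker was counted only where it stood at least 2-fold above the other cells of its library. The summed level of the 10 fibroblast markers in *LCAT* cells was 103583 CPM in the HVP-labelled library and 91778 CPM in the Normal-labelled library. By the same sum *NELL1* cells had 104353 and 96546 CPM, *COL10A1* cells 82761 and 70080 CPM, and *WNT2* cells 132714 and 113279 CPM. The sum therefore did not set *LCAT* cells apart from the populations with tenocyte markers. *COL1A1* alone made up 61107 and 52285 CPM of it in *LCAT* cells. *PDGFRA* (238 and 249 CPM) and *SCARA5* (419 and 458 CPM) were far higher there than in *COL10A1* cells. Those held 5.23 and 9.23 CPM of *PDGFRA* and 15.1 and 15.8 CPM of *SCARA5*. *NELL1* cells held 149 and 156 CPM and 271 and 271 CPM. *COL6A3* was close in *LCAT* (1445 and 1310 CPM) and *COL10A1* cells (1420 and 1409 CPM). Together the 4 stromal populations held 95.9% (95.8 to 96.0) of the 186300 UMIs of the 7 genes in the HVP-labelled library and 95.2% (95.01 to 95.3) of the 83292 UMIs of the 7 genes in the Normal-labelled library. They made up 55.5% and 43.9% of the cells in the libraries labelled HVP and Normal.

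**Figure D1:**
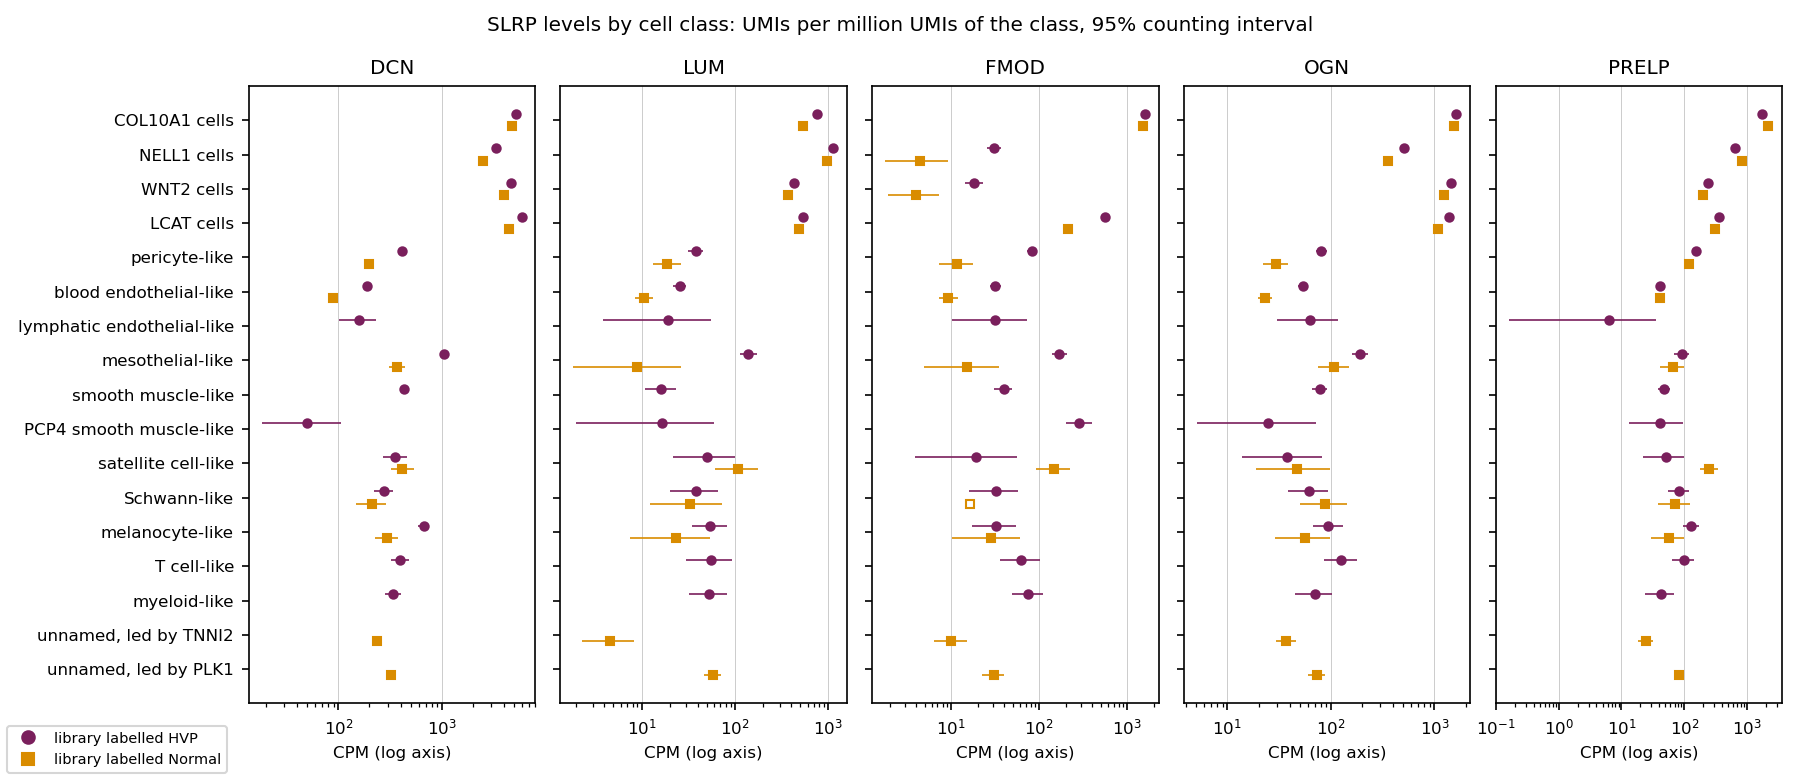
Levels of the 5 abundant SLRPs in each cell class, as CPM on a log axis, with circles for the HVP-labelled library and squares for the Normal-labelled library. Bars are 95% counting intervals, and the open square marks a class with no UMI, drawn at the level that 3 counts would give. *DCN*, *LUM*, *OGN*, and *PRELP* are high in all 4 stromal populations at the top, whereas *FMOD* is high in *COL10A1* cells (1582 and 1510.2 CPM) and low in *WNT2* cells (18.3 and 4.01 CPM).

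*DCN* encodes decorin, which binds fibrillar collagens and TGF-beta, and it was the member found everywhere in the stroma. Its level was 5220.05 CPM in *COL10A1* cells, 3364 CPM in *NELL1* cells, 4691 CPM in *WNT2* cells, and 5933 CPM in *LCAT* cells of the HVP-labelled library. The same populations held 4839.6, 2509.97, 4008, and 4498 CPM in the Normal-labelled library. *NELL1* cells were the lowest of the 4 in both libraries, and the interval of no other population reached theirs. When each cell was thinned to 2000 UMIs, *DCN* was found in 97.9% to 99.5% of the cells of these populations in the HVP-labelled library and in 96.4% to 100% in the Normal-labelled library, and without thinning in 99.3% to 99.9% and 98.5% to 100%. *OGN* encodes osteoglycin (mimecan), a small relative also known from bone and cornea. It had 1629 CPM in *COL10A1* cells, 509 CPM in *NELL1* cells, 1429.8 CPM in *WNT2* cells, and 1384 CPM in *LCAT* cells of the HVP-labelled library, against 1551, 353, 1239.9, and 1079 CPM in the Normal-labelled library. The level in *NELL1* cells was thus the lowest of the 4 in both libraries, as for *DCN*.

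*LUM* encodes lumican, which keeps collagen fibrils thin and evenly spaced, and *NELL1* cells carried the most of it. They held 1110.3 CPM in the HVP-labelled library and 955 CPM in the Normal-labelled library. *COL10A1* cells held 755 and 533 CPM, *LCAT* cells 536 and 483 CPM, and *WNT2* cells 429.8 and 367 CPM. The order of the populations was the same in both libraries, and no intervals of neighbours in this order overlapped. *NELL1* cells over all other cells of their library had 3.17 (3.06 to 3.28) times the *LUM* level in the HVP-labelled library and 4.72 (4.448 to 4.999) times in the Normal-labelled library.

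*FMOD* encodes fibromodulin, a regulator of collagen fibril assembly best known from tendon, and it split the stroma most sharply. *COL10A1* cells held 1582 CPM (10287 UMIs) in the HVP-labelled library and 1510.2 CPM (3925 UMIs) in the Normal-labelled library. *LCAT* cells held 558 and 212 CPM, *NELL1* cells 30.8 and 4.43 CPM, and *WNT2* cells 18.3 and 4.01 CPM. *FMOD* thus separated the populations with tenocyte markers: *NELL1* cells held only 134 and 7 *FMOD* UMIs in the libraries labelled HVP and Normal. *COL10A1* cells accounted for 70.0% (69.2 to 70.7) of the *FMOD* UMIs of the HVP-labelled library and 77.0% (75.8 to 78.2) of those of the Normal-labelled library. After thinning, *FMOD* was found in 72.1% and 80.4% of *COL10A1* cells, 32.7% and 17.5% of *LCAT* cells, 3.31% and 0.730% of *NELL1* cells, and 1.69% and 0.926% of *WNT2* cells of the libraries labelled HVP and Normal. Blood endothelial-like cells, which are not expected to make *FMOD*, had it in 2.75% and 1.19% of cells (median 4056 and 4231 UMIs before thinning, against 7282 and 5181 UMIs in *COL10A1* cells). Without thinning the shares were 86.0% and 88.8% in *COL10A1* cells, 42.5% and 22.5% in *LCAT* cells, and 5.25% and 3.02% in blood endothelial-like cells. *NELL1* and *WNT2* cells were therefore near this background for *FMOD*, and *COL10A1* and *LCAT* cells were above it.

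*PRELP* encodes prolargin, which anchors collagen to heparan sulfate of basement membranes, and it was the second gene with a marked peak in *COL10A1* cells. These cells held 1697 CPM in the HVP-labelled library and 2162 CPM in the Normal-labelled library. *NELL1* cells followed with 635 and 841 CPM, then *LCAT* cells with 349.9 and 312 CPM and *WNT2* cells with 236 and 198 CPM. This order was the same in both libraries, and neighbouring intervals did not overlap. *COL10A1* cells held 61.4% and 58.4% of all *PRELP* UMIs in the libraries labelled HVP and Normal, and *NELL1* cells 15.4% and 13.8%. *LCAT* cells held 12.1% and 14.7%. Per UMI of the population, *PRELP* was thus highest in the populations with tenocyte markers, and unlike *FMOD* it was abundant in both.

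*KERA* and *OMD* were close to the floor of the assay. *KERA* encodes keratocan, known from the cornea, and had 41 UMIs in all cells of the HVP-labelled library and 16 in the Normal-labelled library, 25 and 5 of them in *COL10A1* cells. *OMD* encodes osteomodulin, known from bone, and had 5 and 8 UMIs in all. No population comparison was made for either gene.

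Set against all other cells of the same library, members were called when their CPM differed at least 2-fold, among genes with at least 50 UMIs. For the 5 members that reached this depth, *COL10A1* cells had 4 at least 2-fold higher in the HVP-labelled library (5.9% of all genes tested) and 5 in the Normal-labelled library (6.59%). The largest ratios were those of *FMOD* (9.98 and 28.8) and *PRELP* (6.83 and 12.05), and *DCN* had 1.92 and 2.95. No member was at least 2-fold lower, as 21% and 25.4% of all genes were. *NELL1* cells had 1 higher member in the HVP-labelled library (*LUM*, against 5.44% of all genes) and 2 in the Normal-labelled library (*LUM* and *PRELP*, against 6.58%). *FMOD* was lower in *NELL1* cells of both libraries (ratio 0.0634 and 0.0203), where 25.4% and 29.7% of all genes were at least 2-fold lower. *WNT2* cells had 0 higher members in the HVP-labelled library (5.77% of all genes), where *OGN* stood at 1.93 and passed 2-fold with cells of more than 500 genes (2.03), after thinning (2.14), and as a mean over cells (2.20). They had 2, *DCN* (2.29) and *OGN* (2.79), in the Normal-labelled library (7.07%). *FMOD* (0.0377 and 0.0177) and *PRELP* (0.420 and 0.486) were the 2 lower members in *WNT2* cells, where 24.4% and 26% of all genes were lower. The *PRELP* ratio lost that call after thinning (0.508 and 0.511) and as a mean over cells (0.528 and 0.545), and in the Normal-labelled library also with cells of more than 500 genes (0.514). *LCAT* cells had 1 higher member in the HVP-labelled library (*DCN*, 2.29, against 2.62% of all genes), with *OGN* at 1.97 and past 2-fold after thinning (2.20) and as a mean over cells (2.17). They had *DCN* (3.18), *LUM* (2.43), and *OGN* (2.69) in the Normal-labelled library (4.01%). None was lower there, against 19.1% and 20.8% of all genes. Other calls close to 2-fold also depended on the setting. *LUM* in *COL10A1* cells of the HVP-labelled library, at 2.02, was 1.89 at resolution 0.5, 1.88 with SLRP genes left in the variable genes, and 1.93 with both libraries clustered together. *DCN* there was past 2-fold after thinning (2.03) and as a mean over cells (2.07), and *LUM* in *LCAT* cells of the Normal-labelled library was 1.84 with joint clustering. With 300 to 4000 genes and under 5% mitochondrial UMIs, *LUM* and *OGN* in *COL10A1* cells of the HVP-labelled library had ratios of 1.40 and 1.83, and *DCN* in its *LCAT* cells 1.70. In the Normal-labelled library the same filter gave 1.97 for *DCN* and 1.76 for *LUM* in *COL10A1* cells and 1.55 for *PRELP* in *NELL1* cells. It also put *OGN* in *NELL1* cells past 2-fold lower in both libraries (0.429 and 0.445) and *PRELP* in *LCAT* cells of the HVP-labelled library (0.459). The other cells hold the remaining 3 stromal populations and a smaller stromal share in the Normal-labelled library, so these ratios are not comparable between the libraries.

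The make-up of the SLRP transcripts thus gave each population a profile that recurred in both libraries. In *COL10A1* cells, *DCN* was 47.9% of the UMIs of the 7 genes in the HVP-labelled library and 45.7% in the Normal-labelled library, where *FMOD* took 14.5% and 14.3%, *OGN* 15.0% and 14.6%, and *PRELP* 15.6% and 20.4%. In *NELL1* cells, *LUM* took 19.6% and 20.5% and *PRELP* 11.2% and 18.0%, with *FMOD* at 0.544% and 0.0949%. *WNT2* cells were *DCN* (68.9% and 68.9%) and *OGN* (21.0% and 21.3%) with *LUM* at 6.31% and 6.32% and *PRELP* at 3.47% and 3.40%. *LCAT* cells resembled *WNT2* cells in *DCN* (67.7% and 68.3%) but had *FMOD* at 6.37% and 3.22%, against 0.269% and 0.0690% in *WNT2* cells. Single cells mostly held several members: after thinning, at least 3 were found in 95.9% and 98.6% of *COL10A1* cells, 75.2% and 71.9% of *NELL1* cells, 59.8% and 54.1% of *WNT2* cells, and 70.9% and 56.4% of *LCAT* cells.

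**Figure D2:**
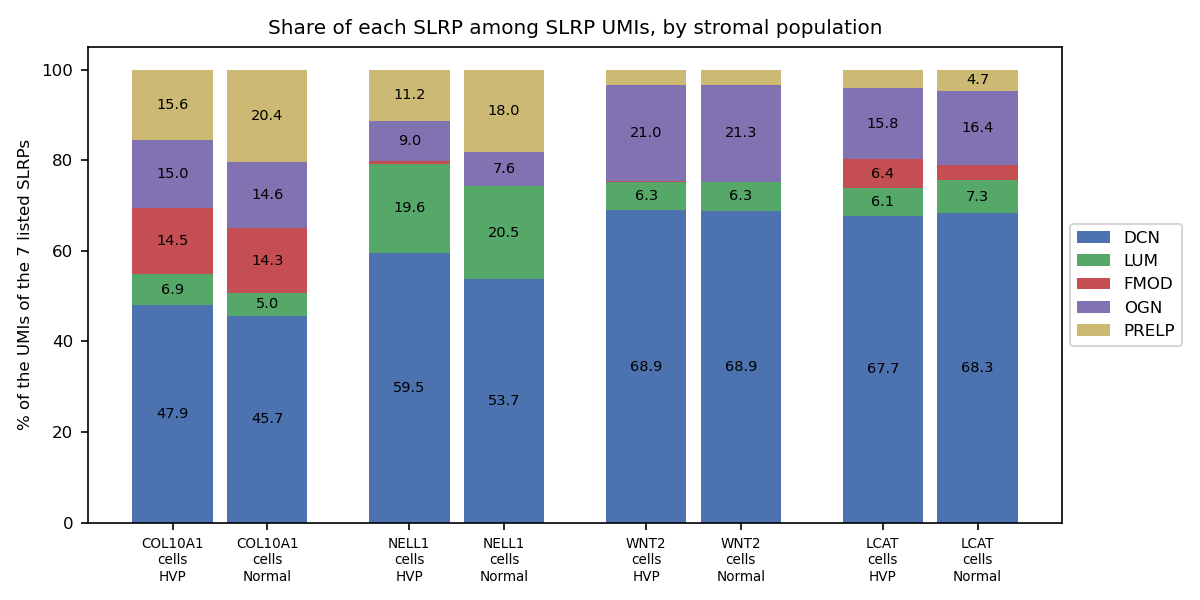
Share of each gene among the UMIs of the 7 listed SLRPs in each stromal population, in percent, with the HVP-labelled library left of the Normal-labelled library for each population. *KERA* and *OMD* are too rare to draw. *FMOD* is visible in *COL10A1* cells (14.5% and 14.3%) and *LCAT* cells (6.37% and 3.22%), *LUM* is widest in *NELL1* cells (19.6% and 20.5%), and *OGN* is widest in *WNT2* cells (21.0% and 21.3%).

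The *FMOD* of *LCAT* cells came from only a part of them. At a finer clustering resolution of 0.5, *LCAT* cells of each library fell into a cluster with more *LCAT* (704 cells in the HVP-labelled library, 709 in the Normal-labelled library) and one with less (300 and 370 cells). *FMOD* stood at 746 CPM in the cluster with more *LCAT* and 17.5 CPM in the other of the HVP-labelled library, and at 295 and 15.8 CPM in the Normal-labelled library. The first cluster therefore held 99.2% and 97.8% of the *FMOD* UMIs of *LCAT* cells, a 42.5-fold (29.4 to 64.1) and 18.7-fold (12.1 to 30.3) difference in level. The other members differed less, with ratios in the HVP-labelled library of 2.27 for *DCN*, 1.65 for *LUM*, 2.62 for *OGN*, and 3.29 for *PRELP*. In the Normal-labelled library they were 2.30 for *DCN*, 2.65 for *LUM*, 3.38 for *OGN*, and 5.84 for *PRELP*. The rankings given above hold for *LCAT* cells taken whole. *DCN* in the cluster with less *LCAT* (3052 and 2346 CPM) lay below *NELL1* cells at this resolution (3363 and 2517 CPM). *LUM* in the cluster with more *LCAT* of the Normal-labelled library (590 CPM) lay above *COL10A1* cells (533 CPM). Of all genes tested in this pair of clusters, 4.31% and 6.51% were at least 2-fold higher in the cluster with more *LCAT*. *COL1A1*, a fibrillar collagen chain, was 5.96 and 5.68 times higher there. *COL11A1*, a nucleator of collagen fibrils and one of the tenocyte markers, was 6.72 and 12.5 times higher. *TNMD*, a tendon membrane protein, stood at 156 and 41.99 CPM in the clusters with more and less *LCAT* of the HVP-labelled library and at 106 and 4.51 CPM in those of the Normal-labelled library. *COL10A1* itself had 2 UMIs and 1 UMI in the clusters with more *LCAT*, against 39.2 and 32.3 CPM in the clusters of *COL10A1* cells at this resolution.

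**Figure D3:**
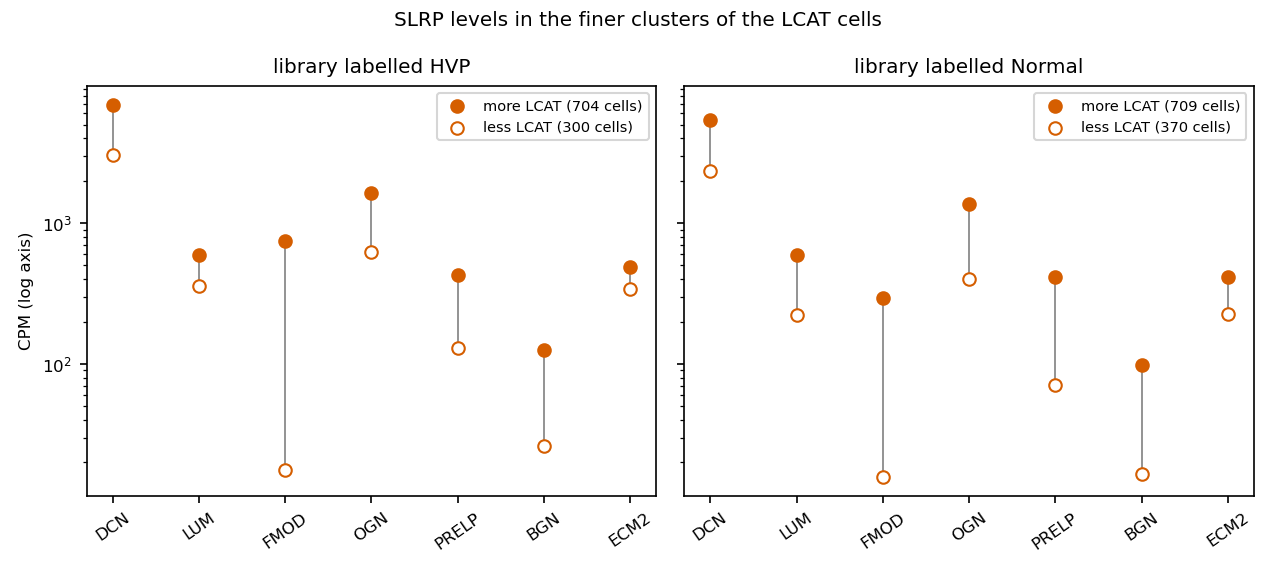
Levels of SLRPs in the finer clusters of the *LCAT* cells, as CPM on a log axis, with the HVP-labelled library at the left and filled circles for the cluster with more *LCAT*. *FMOD* shows the widest gap between the clusters in both libraries (746 against 17.5 CPM and 295 against 15.8 CPM).

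Between the libraries, *DCN*, *LUM*, *OGN*, and *PRELP* differed by less than 2-fold in all 4 stromal populations. *FMOD* passed 2-fold in 3 of them: in *LCAT* cells and, near its background level, in *NELL1* and *WNT2* cells. In *COL10A1* cells, 0 of 5 members passed 2-fold in either direction, where 1.39% of all genes were at least 2-fold higher in the HVP-labelled library and 0.891% lower. The median log2 ratio over all genes lay between -0.06 and 0.01 in the 4 populations. The ratio of the HVP-labelled library over the Normal-labelled library was 1.08 for *DCN*, 1.05 for *FMOD*, 1.05 for *OGN*, 1.42 (1.34 to 1.51) for *LUM*, and 0.785 (0.760 to 0.811) for *PRELP*. *NELL1* cells had the same low side for *PRELP*, at 0.755 (0.707 to 0.807), and 1.34 for *DCN*, 1.16 for *LUM*, and 1.44 for *OGN*, of which *OGN* was 0.949 with both libraries clustered together. *WNT2* cells ranged from 1.15 for *OGN* to 1.19 for *PRELP* among these 4 members. In *LCAT* cells the same 4 ranged from 1.11 for *LUM* to 1.32 for *DCN*. *PRELP* was thus on the lower side in the HVP-labelled library in both populations with tenocyte markers under all alternatives run. In *LCAT* cells its 1.12 was 0.898 with both libraries clustered together, and it was 1.03 (0.964 to 1.11) in the finer cluster with more *LCAT*.

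*FMOD* was the exception, and its call rested on unequal evidence. In *LCAT* cells it stood at 558 CPM (3474 UMIs) in the HVP-labelled library and 212 CPM (962 UMIs) in the Normal-labelled library, a ratio of 2.63 (2.45 to 2.83), where 0.961% of all genes were at least 2-fold higher (1.84% lower) and 1 of 5 members was higher and 0 lower. *FMOD* was found in 427 of 1005 *LCAT* cells and 243 of 1081 *LCAT* cells, and the ratio was 2.71 without the 5 richest cells of each library. Within the finer cluster with more *LCAT* it was 2.53 (2.35 to 2.72), where *DCN* was 1.28, *OGN* 1.21, *PRELP* 1.03, and *LUM* 1.01. Of the 9 tenocyte markers, 7 had a ratio above 1 in *LCAT* cells, where the median ratio over all genes was 0.974. Their ratios lay between 0.567 and 3.78, and none was at 0 in either library. Their summed level was 1708 CPM in the HVP-labelled library and 1433 CPM in the Normal-labelled library. The same count was not particular to *LCAT* cells: it was 8 of 9 in *COL10A1* cells, where *FMOD* had 1.05, 7 in *WNT2* cells, and 6 in *NELL1* cells. The part of these markers in the *FMOD* difference was not tested. With both libraries clustered together, the ratio in *LCAT* cells was 1.76 and no longer passed 2-fold. In *NELL1* cells (6.94, 3.28 to 17.6, where 2.4% of all genes were higher and 1.14% lower, with 1 of 5 members higher and 0 lower) the Normal-labelled library had 7 *FMOD* UMIs, 57.1% of them in 1 cell. In *WNT2* cells (4.56, 2.35 to 9.88, where 0.576% of all genes were higher and 1.29% lower, with 1 of 5 members higher and 0 lower) 1 cell held 53.2% of the 77 *FMOD* UMIs of the HVP-labelled library. Clustering both libraries together gave 0.936 in *NELL1* cells and 0.947 in *WNT2* cells. Blood endothelial-like cells, the background used above, held 31.8 and 9.31 CPM of *FMOD* in the libraries labelled HVP and Normal. That is a ratio of 3.41 (2.56 to 4.60), and the part of such background in the *NELL1* and *WNT2* cell ratios was not tested. The ratio in *NELL1* cells was 14.8 with SLRP genes left in the variable genes, and that in *WNT2* cells was 1.88 without the top 5% of doublet scores and 2.56 as a mean over cells.

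**Figure D4:**
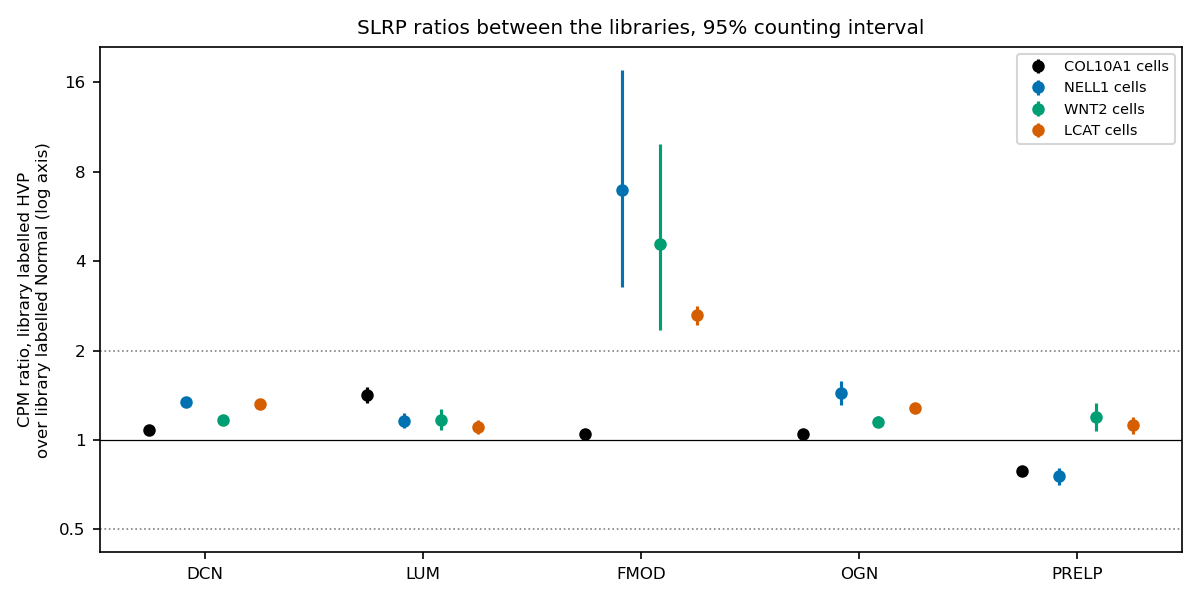
Ratio of the CPM in the HVP-labelled library over that in the Normal-labelled library, on a log axis, for the 5 abundant SLRPs in each stromal population. Bars are 95% counting intervals and dotted lines mark 2-fold. *FMOD* in *NELL1*, *WNT2*, and *LCAT* cells (6.94, 4.56, and 2.63) lies above the upper line, and *PRELP* in *COL10A1* and *NELL1* cells (0.785 and 0.755) lies below 1.

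Summed over pairs of populations, *COL10A1* and *NELL1* cells (tenocyte-type) had 0 of 5 members past 2-fold (1.39% of all genes higher and 0.957% lower), and *WNT2* and *LCAT* cells (fibroblast-type) had 1, *FMOD* at 2.46 (2.29 to 2.64), where 0.632% of all genes were higher and 1.49% lower. That *FMOD* ratio was 1.79 with both libraries clustered together and no longer passed 2-fold. Over all kept cells, each of the 5 members was higher in the HVP-labelled library, with ratios of 1.62 for *DCN*, 1.78 for *LUM*, 2.09 for *FMOD*, 1.58 for *OGN*, and 1.35 for *PRELP*. The stromal share of cells was also larger in that library, and its part in these totals was not tested: 874 of its cells were *COL10A1* cells, against 493 in the Normal-labelled library, and 606 were *NELL1* cells, against 274.

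Outside the stroma the 5 abundant members were found at low levels, set here in proportion to *DCN* because free RNA from 1 source keeps its genes in 1 ratio in every class. In the 4 stromal populations together there were 14.1 *LUM* UMIs and 26.1 *OGN* UMIs per 100 *DCN* UMIs in the HVP-labelled library, and 12.8 and 26.8 in the Normal-labelled library. In blood endothelial-like cells *LUM* per *DCN* was 0.951 (0.794 to 1.13) and 0.956 (0.742 to 1.22) times that of the stroma, and *OGN* per *DCN* 1.10 (0.966 to 1.25) and 0.984 (0.823 to 1.17) times. These intervals include 1 in both libraries, whereas *FMOD* per *DCN* was 1.26 (1.07 to 1.48) times that of the stroma in the HVP-labelled library and 1.02 (0.774 to 1.31) times in the Normal-labelled library. *DCN* itself stood at 189 CPM in these cells of the HVP-labelled library and 87.8 CPM in the Normal-labelled library. *PRELP* per *DCN* lay above the pooled stroma in pericyte-like and blood endothelial-like cells of both libraries, each class taken whole. Other classes were mixed. It was above the stroma in Schwann-like cells of the HVP-labelled library (1.85, 1.17 to 2.84). The same held for satellite cell-like cells of the Normal-labelled library (3.16, 2.04 to 4.83). That value rested on few cells, since their 37 *PRELP* UMIs fell to 6 without the 5 richest of 39 cells. Mesothelial-like (0.538) and smooth muscle-like cells (0.681) of the HVP-labelled library lay below the stroma. Pericyte-like cells held 481 *PRELP* and 1309 *DCN* UMIs in the HVP-labelled library and 213 *PRELP* and 359 *DCN* UMIs in the Normal-labelled library, so *PRELP* per *DCN* was 2.28 (2.05 to 2.54) and 3.14 (2.64 to 3.74) times that of the stroma, the first being 1.51 with 300 to 4000 genes and under 5% mitochondrial UMIs. After thinning, *PRELP* was found in 21.5% (18.3 to 24.8) and 19.9% (16.5 to 23.6) of pericyte-like cells, against 5.60% and 7.63% of blood endothelial-like cells, and without thinning in 37.5% and 28.7%, against 11.1% and 13.8%. *FMOD* per *DCN* had no shared direction in pericyte-like cells as clustered here, at 1.51 and 0.560 times that of the stroma. The first value rested on few cells: its 262 *FMOD* UMIs fell to 117 without the 5 richest. At resolution 0.5 this class of the HVP-labelled library held 122 *FMOD* and 1099 *DCN* UMIs. That is below the 13.3 *FMOD* UMIs per 100 *DCN* UMIs of the stroma, so the direction depended on the clustering. In blood endothelial-like cells *PRELP* per *DCN* was 1.33 (1.15 to 1.54) and 2.44 (2.11 to 2.81) times that of the stroma, and 2.86 and 5.34 times without the cells of the top 5% of doublet scores. At the finer resolution of 0.5 these cells split into unlike clusters. In the HVP-labelled library, 1 cluster held 114 *PRELP* and 334 *DCN* UMIs and the other 119 and 751. In the Normal-labelled library, 1 held 224 and 241 and the other 62 and 381. In each library the second cluster did not lie above the stroma, which had 16.1 and 18.9 *PRELP* UMIs per 100 *DCN* UMIs. Ratios for the class taken whole thus mix these clusters. The stroma itself was uneven: *COL10A1* cells held 32.5 and 44.7 *PRELP* UMIs per 100 *DCN* UMIs, *NELL1* cells 18.9 and 33.5, *WNT2* cells 5.03 and 4.93, and *LCAT* cells 5.90 and 6.94. Set against *COL10A1* cells alone, *PRELP* per *DCN* was 1.13 (1.01 to 1.26) and 1.33 (1.11 to 1.58) times as high in pericyte-like cells. It was 0.660 (0.570 to 0.763) and 1.03 (0.888 to 1.19) times as high in blood endothelial-like cells taken whole. The part of RNA from *COL10A1* cells in these levels was not tested. *LUM* and *OGN* per *DCN* in pericyte-like cells lay below the stroma in the HVP-labelled library (0.643 and 0.744) and for *OGN* also in the Normal-labelled library (0.551), whereas for *LUM* there the interval included 1 (0.741, 0.505 to 1.06).

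**Figure D5:**
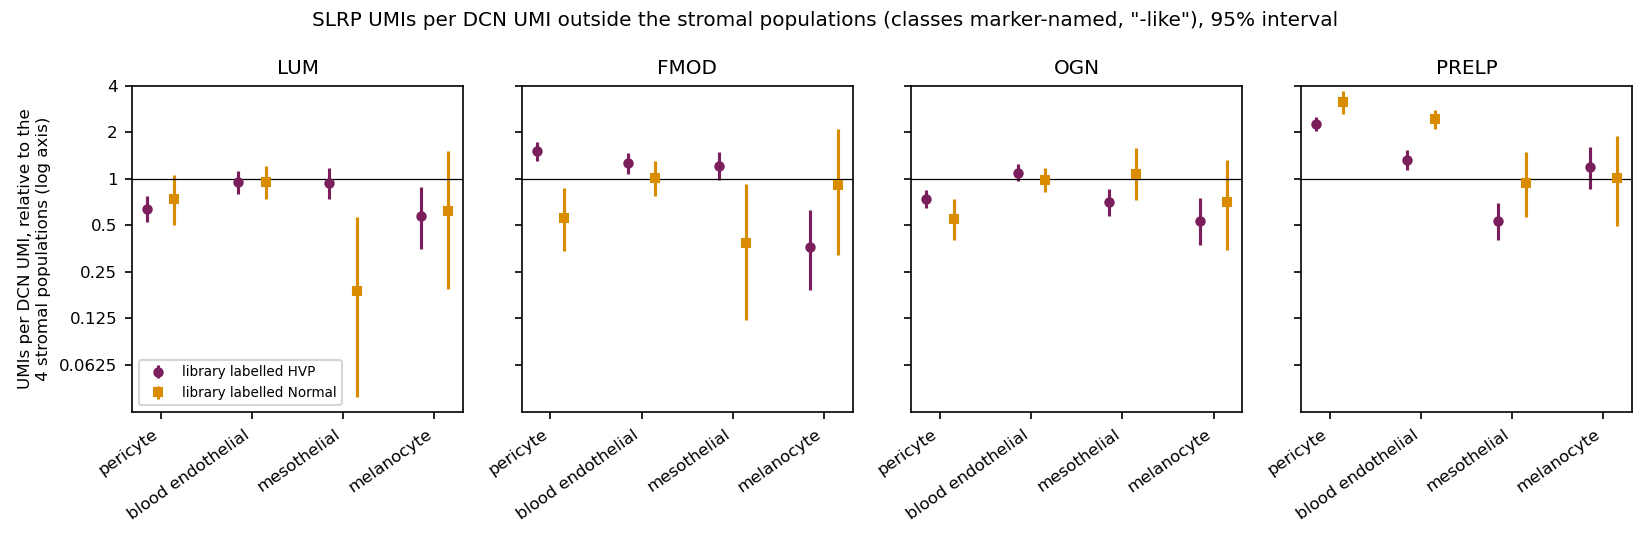
UMIs of *LUM*, *FMOD*, *OGN*, and *PRELP* per *DCN* UMI in marker-named classes outside the stroma, relative to the 4 stromal populations together, on a log axis with 95% intervals. *LUM* and *OGN* lie near 1 in blood endothelial-like cells, and *PRELP* lies above 1 in pericyte-like cells (2.28 and 3.14) and blood endothelial-like cells (1.33 and 2.44) of both libraries.

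The low levels outside the stroma also differed between the libraries. In pericyte-like cells 4 of 5 members were at least 2-fold higher in the HVP-labelled library, where 1.16% of all genes were, and in blood endothelial-like cells likewise 4 of 5, against 1.2% of all genes. *DCN* was 2.09 (1.86 to 2.35) and 2.16 (1.95 to 2.39) times higher in these classes. *LUM* had ratios of 2.004 (1.36 to 3.03) and 2.38 (1.79 to 3.18), and *OGN* 2.74 (2.03 to 3.76) and 2.35 (1.94 to 2.85). Several of these intervals reach below 2-fold, and some pericyte-like calls depended on the clustering. At the finer resolution, pericyte-like cells held 357 and 200 CPM of *DCN* in the libraries labelled HVP and Normal. That is less than 2-fold, as for *LUM* (31.5 and 18.9 CPM). *OGN* (59.8 and 29.5 CPM) and *FMOD* (39.7 and 11.7 CPM) stayed past 2-fold. Without the 5 richest cells of each library, these 4 members stayed past 2-fold in both classes. The lowest ratio was 2.11, for *DCN* in blood endothelial-like cells. No other cell filter was run for these ratios. In these classes as clustered above, *PRELP* had ratios of 1.29 (1.10 to 1.53) and 1.01 (0.845 to 1.20). Some stromal collagen genes were also higher in the HVP-labelled library. *COL1A1* stood at 3385 and 1512 CPM in pericyte-like cells and 2234 and 1225 CPM in blood endothelial-like cells. *COL1A2* stood at 1794 and 933 CPM and at 926 and 458 CPM. *COL6A3* differed less (564 and 503 CPM, and 74.7 and 83.5 CPM). The part of stromal RNA in these differences was not tested. *FMOD* was 7.14 times higher in pericyte-like cells of the HVP-labelled library, where 35 of 651 cells held its 262 UMIs and 1 cell held 18.3% of them, against 21 UMIs in 526 cells of the Normal-labelled library. Mesothelial-like cells held 1049 and 373 CPM of *DCN*, 139.6 and 9.02 CPM of *LUM*, and 169 and 15.0 CPM of *FMOD*. Their *COL1A1* stood at 10786 and 1504 CPM. In the HVP-labelled library 1 cell held 40.7% of their *FMOD* UMIs. A small smooth muscle-like cluster of the HVP-labelled library, led by *PCP4* and only 18 cells in size, had more *FMOD* than *DCN*, with 35 and 6 UMIs. *FMOD* was found in 14 of these 18 cells, the highest with 8 UMIs, while *COL10A1* and *TNMD* had no UMI and *ACTG2*, a visceral smooth muscle actin, had 2451. In satellite cell-like cells of the Normal-labelled library, by contrast, 1 cell held 95.5% of the 22 *FMOD* UMIs.

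The other SLRPs were counted as a list of 10 genes, of which 9 had a row. In *COL10A1* cells *BGN*, *CHAD*, and *EPYC* were at least 2-fold higher than in other cells in both libraries. The gene listed as *BGN* lies between *ECM2* and *OMD*, a place that *ASPN* holds in mammals, so whether its counts are those of biglycan or asporin cannot be told from these files. It stood at 402 and 343 CPM, and *CHAD*, the cartilage protein chondroadherin, at 1942 and 2369 CPM. *EPYC* was far rarer, at 8.76 and 8.85 CPM (57 and 23 UMIs). Of the list, 4 of 9 were higher in *COL10A1* cells of the HVP-labelled library (5.9% of all genes, median ratio 1.71 against 0.884 over all genes) and 4 of 7 in the Normal-labelled library (6.59% of all genes, median 2.43 against 0.829). *NELL1* cells had 1 of 9 higher in the HVP-labelled library (5.44% of all genes, median 0.970 against 0.817) and 5 of 7 in the Normal-labelled library (6.58% of all genes, median 2.43 against 0.756). *BGN* was also higher in *NELL1* cells (3.57 and 6.31) and lower in *WNT2* cells (0.241 and 0.237). *PODN*, podocan, was higher in *LCAT* cells (2.495 and 4.29), and *TSKU*, tsukushi, in *WNT2* cells (3.16 and 4.01) and *LCAT* cells (2.39 and 2.79) but not in *COL10A1* cells (0.173 and 0.379). *BGN* and *ECM2* were also abundant in pericyte-like cells, with 13.2 and 11.9 times the stromal UMIs per *DCN* UMI in the HVP-labelled library and 22.7 and 18.7 times in the Normal-labelled library. Against *COL10A1* cells alone these were still 9.77 and 11.1 times for *BGN* and *ECM2* in the HVP-labelled library and 14.9 and 17.7 times in the Normal-labelled library. These ratios have a low *DCN* level (417 and 200 CPM) in pericyte-like cells beneath them. As levels, pericyte-like cells held 314 and 210 CPM of *BGN* and 473 and 367 CPM of *ECM2*. *COL10A1* cells held more of both, with *ECM2* at 536 and 501 CPM. *LCAT* cells held less *BGN* (101 and 74.4 CPM). Their *ECM2* was close to that of pericyte-like cells (447 and 357 CPM), and higher in the finer cluster with more *LCAT* (485 and 412 CPM). *WNT2* cells held more *ECM2* (536 and 485 CPM) and less *BGN* (57.2 and 30.1 CPM) than pericyte-like cells. *NELL1* cells held less *ECM2* (345 and 301 CPM) and more *BGN* (581 and 553 CPM).

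Most SLRP genes of the chicken lie in 3 groups of neighbours, by the RefSeq annotation of GRCg7b. On chromosome 1, *KERA* (44022612 to 44032362), *LUM* (44041583 to 44053528), and *DCN* (44073171 to 44112514) follow *EPYC*. On chromosome 26, *FMOD* (5174637 to 5181340) and *PRELP* (5193998 to 5215993) are followed by *OPTC*, and on chromosome 12, *OMD* (3601680 to 3608401) and *OGN* (3616876 to 3628603) follow *ECM2* and the gene listed as *BGN*. All 4 genes on chromosome 12 overlap *CENPP* in this annotation, and *DCN*, *KERA*, *FMOD*, and *PRELP* overlap gene models without a name, so their counts are uncertain to that extent. Over the 27 clusters of both libraries, Pearson's r of log2(CPM + 10) was 0.92 between the neighbours *DCN* and *LUM*, 0.52 between the neighbours *FMOD* and *PRELP*, and 0.96 between *DCN* and *OGN*, which lie on different chromosomes. Among 11039 genes, those most like *DCN* were *OGN* (0.96) and *MXRA5* (0.96), those most like *OGN* were *DCN* and *COL1A2* (0.95), and those most like *LUM* were *COL1A2* (0.96) and *SFRP2* (0.95). *FMOD* had no such close companion, with *CHODL* (0.80) and *CILP2* (0.78) nearest, and *PRELP* was nearest to *ANGPTL5* (0.92) and *CHAD* (0.91). These values describe clusters that share 2 libraries and their depth, and they are no test.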

How the data were processed

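The authors dissociated peritoneal tissue, made 1 droplet library (3′ v3.1) per group, and counted UMIs with Cell Ranger 7.1.0 (STAR) on GRCg7b with mitochondrial genes added. The deposited values are these raw UMI counts, 29558 genes by barcode, 36100448 UMIs in the HVP-labelled library and 26865572 in the Normal-labelled library. The members, marker lists, and gene lists were chosen with earlier results of these data known.

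Barcodes with more than 1000 genes were kept. Each library was clustered with Seurat 5.3.0 (R 4.3.3, log normalization, 2000 variable genes without SLRPs and *DCT*, *TYR*, and *TYRP1*, 20 principal components, resolution 0.2). A marker counted at a CPM ratio to other cells of at least 2 in at least 10% of cells, and a name needed at least 3 markers and no other type leading. Because the tenocyte and fibroblast names did not hold in both libraries, the planned comparisons used populations by leading gene and their unions, a choice made after seeing the clusters. Genes named are all members, other SLRPs and chain enzymes past 2-fold in both libraries, neighbours in RefSeq, the 2 genes most alike for each member, and leading or class-defining genes. Other genes, such as *COL1A1* and *TNMD* in the finer clusters, were picked after their values were seen.

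For each class the UMIs of all its cells were added up. Exact 95% intervals (scipy 1.17.1) took the Poisson form for CPM, the Clopper-Pearson form for a share, and the conditional binomial form for a ratio of CPM. For a ratio of UMIs per *DCN* UMI the exact conditional interval of the odds ratio was used, which counts the error of *DCN*. PCR and cell-to-cell spread are not covered. For shares of cells, each cell was thinned to 2000 UMIs and shallower cells left out. No count test was run, since each group is 1 library. Scrublet (scanpy 1.11.5) called 5 and 155 of all barcodes in the libraries labelled HVP and Normal as doublets, too few in the first to have worked, and none was removed. When sums for *LCAT* cells were simulated as Poisson counts (9882 genes, 200 of them changed), the interval covered the set ratio for 96.5% of those changed. The interval assumes the same Poisson error, so this checks the calculation only and not the spread between cells or birds. Alternatives were other cell filters, resolution 0.5, SLRPs left in the variable genes, joint clustering, cells with the top 5% of doublet scores left out, thinning, totals without ribosomal protein and mitochondrial genes, means over cells, TMM scaling (edgeR 4.0.16), and cells with at least 3 tenocyte markers. Leaving out the 5 richest cells was added after seeing the data. Sequences were not used here.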

Additional observations from a re-analysis of the deposited data

How the results depend on the processing

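The share of SLRP UMIs in the 4 stromal populations moved by more than its counting interval under most settings but stayed within 94.0% and 97.9%. In the HVP-labelled library it was 96.1% with cells of more than 500 genes, 97.5% with 300 to 4000 genes and under 5% mitochondrial UMIs, 96.2% at resolution 0.5, 96.3% with SLRP genes left in the variable genes, 95.7% with both libraries clustered together, 97.9% without the top 5% of doublet scores, 95.6% after thinning, and 95.5% as a mean over cells. In the Normal-labelled library the first 2 filters gave 95.4% and 96.6%, SLRP genes left in 94.96%, joint clustering 94.0%, doublet scores 96.8%, thinning 94.98%, and the mean over cells 94.8%.

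The count of members past 2-fold between the libraries was 0 instead of 1 in *NELL1*, *WNT2*, and *LCAT* cells and in their fibroblast-type union when both libraries were clustered together, and 0 instead of 1 in *WNT2* cells without the top 5% of doublet scores. *FMOD* was then 0.936 in *NELL1* cells and 0.947 in *WNT2* cells, turned in direction, 1.76 in *LCAT* cells, and 1.79 in the fibroblast-type union, while *OGN* was 0.949 in *NELL1* cells and *PRELP* 0.898 in *LCAT* cells. Without the doublet scores it was 1.88 in *WNT2* cells. Joint clustering moved cells between the populations: the Normal-labelled library then had 369 *NELL1* and 931 *LCAT* cells in place of 274 and 1081. The cause of the changes in these ratios was not tested. With 300 to 4000 genes, and with SLRP genes left in, *WNT2* and *LCAT* cells of the Normal-labelled library formed 1 cluster and gave no separate value. Of 304 single-gene values between the libraries over all alternatives, 5 changed side of 2-fold, 4 of them under joint clustering. Of 340 values of a population over other cells, 25 did. *PRELP* per *DCN* relative to the pooled stroma stayed above 1 in pericyte-like and blood endothelial-like cells of both libraries in all 36 values, the lowest being 1.24. These values take each class whole and do not hold for every finer cluster. No paired analysis was possible because each group has 1 library. Depth limits *KERA* and *OMD*, and no setting addresses the spread between birds.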

Other observations

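The enzymes that build, sulfate, and supply glycosaminoglycan chains, which most SLRPs carry, were counted as a list of 32 genes, 29 of them with at least 50 UMIs in each library. In *COL10A1* cells 3 were at least 2-fold higher than in other cells of the HVP-labelled library and 8 lower, where 5.9% of all genes were higher and 21% lower, with a median ratio of 0.860 against 0.884 over all genes. In the Normal-labelled library 4 were higher and 8 lower, where 6.59% of all genes were higher and 25.4% lower (median 1.11 against 0.829). Higher in both libraries were *CSGALNACT1*, which starts chondroitin sulfate chains (7.89 and 5.42), *PAPSS2*, which makes the sulfate donor (2.05 and 3.52), and *CHPF*, the chondroitin polymerizing factor (2.21 and 2.65). *CHST11*, a chondroitin 4-O-sulfotransferase, was lower in all 4 stromal populations of both libraries, with ratios between 0.0635 and 0.464. *CHST13* was higher only in *NELL1* cells among the 4 (3.66 and 2.82), and *PAPSS2* was lower there (0.362 and 0.278). In *WNT2* cells *CHST2*, which sulfates N-acetylglucosamine, and *DSEL*, a dermatan sulfate epimerase homologue, were higher (2.15 and 2.24 for *CHST2*, 2.07 and 2.30 for *DSEL*). *PAPSS2* was also higher in *LCAT* cells (2.53 and 2.68).

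Between the libraries, 1 of 26 enzymes tested in *COL10A1* cells passed 2-fold (*CSGALNACT1*, at 46.1 CPM in the HVP-labelled library and 22.3 CPM in the Normal-labelled library), where 1.39% of all genes were higher and 0.891% lower. In *LCAT* cells *CHST15* was higher (9.64 and 4.41 CPM) and *CHST11* lower (5.78 and 13.2 CPM) in the HVP-labelled library among 27 enzymes tested, where 0.961% of all genes were higher and 1.84% lower. In *NELL1* cells 0 of 26 passed (2.4% of all genes higher and 1.14% lower), and in *WNT2* cells 0 of 23 (0.576% higher and 1.29% lower).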
